A study of Rattus norvegicus with 6 samples.

Results

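The genes described here are 10 genes of the response to stress in the endoplasmic reticulum (ER), namely Hspa5, Hsp90b1, Calr, Pdia4, Dnajb9, Xbp1, Atf4, Atf6, Ddit3 and Ern1, in lung tissue of rats with and without bleomycin-induced pulmonary fibrosis (PF). They were taken by symbol, as known genes of this response, with earlier results of these data known. In the table of linear RNAs their symbols were carried by 26 of 70376 transcripts, of which 12 were annotated and 14 were assembled from the reads by the authors, and 25 of the 26 were tested. The rats were Sprague-Dawley rats that were 7 weeks old at the start. The 3 PF model rats were given a single dose of bleomycin at 7 mg/kg into the trachea and the 3 control rats were given saline, and the lungs were collected on day 28. The 6 libraries, 3 of PF model and 3 of control rats, were depleted of ribosomal RNA. The lung was measured as a whole tissue, so fewer cells of a type and less RNA per cell cannot be told apart.

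The ER folds and matures proteins that are secreted or placed in membranes, such as surfactant proteins, antibodies and collagens. When unfolded proteins accumulate, the sensors IRE1 (encoded by Ern1), PERK and ATF6 in the ER membrane start the unfolded protein response. IRE1 cuts the mRNA of Xbp1 so that it encodes an active transcription factor, PERK slows translation while that of Atf4 goes on, and ATF6 is cut in the Golgi to release a transcription factor. These factors raise transcription of chaperones and of genes that degrade misfolded proteins, and under lasting stress they raise Ddit3, which encodes the pro-apoptotic factor CHOP. In the lung the response is known best from type 2 alveolar epithelial cells that carry mutant surfactant protein C, and from plasma cells, which depend on XBP1.

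ATF6 acts with NF-Y on the ER stress response element (ERSE), in which CCAAT and CCACG are joined by 9 bases. The 250 bases before the annotated start of each gene, from RefSeq on build GRCr8, were searched on both strands. Promoters were listed for 8 of the 10 genes, all except Atf6 and Ern1, and 4 of these 8 held the element, against 22 of 33469 promoters (0.0657%) in the whole table. The 10 genes were taken as known genes of the ER stress response. This element belongs to that response, so the share is not independent of their choice. The sequences of the 4 promoters are shown because the chaperone genes Hspa5, Hsp90b1 and Calr shared the element with Xbp1. They read 5′ to 3′ towards the start, with matches to the ERSE in capitals, and a match that starts with CGTGG lies on the opposite strand.
Hspa5, chr3:38452766-38453015, plus strand: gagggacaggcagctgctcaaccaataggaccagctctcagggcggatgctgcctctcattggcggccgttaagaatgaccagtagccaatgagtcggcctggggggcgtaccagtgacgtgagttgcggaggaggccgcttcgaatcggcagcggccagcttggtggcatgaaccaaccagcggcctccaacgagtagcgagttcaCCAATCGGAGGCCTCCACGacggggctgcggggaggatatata
Hsp90b1, chr7:23012294-23012543, minus strand: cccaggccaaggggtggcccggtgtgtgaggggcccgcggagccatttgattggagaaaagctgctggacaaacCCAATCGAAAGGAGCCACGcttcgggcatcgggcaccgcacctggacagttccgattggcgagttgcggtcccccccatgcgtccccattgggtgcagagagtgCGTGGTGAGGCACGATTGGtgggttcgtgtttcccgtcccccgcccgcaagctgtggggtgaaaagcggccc
Calr, chr19:40213117-40213366, plus strand: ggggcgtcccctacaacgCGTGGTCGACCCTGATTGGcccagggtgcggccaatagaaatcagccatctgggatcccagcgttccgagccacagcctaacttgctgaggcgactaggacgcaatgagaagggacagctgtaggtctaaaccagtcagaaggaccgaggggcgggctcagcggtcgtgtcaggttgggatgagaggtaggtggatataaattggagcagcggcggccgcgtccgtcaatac
Xbp1, chr14:84604373-84604622, plus strand: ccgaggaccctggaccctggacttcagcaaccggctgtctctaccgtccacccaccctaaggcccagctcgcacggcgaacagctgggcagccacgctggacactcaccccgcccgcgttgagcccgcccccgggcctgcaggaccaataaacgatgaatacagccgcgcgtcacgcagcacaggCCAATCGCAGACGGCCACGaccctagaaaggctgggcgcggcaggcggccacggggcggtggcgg

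The ERSE began 43 bases before the start in Hspa5 and 65 bases before it in Xbp1. In Hsp90b1 there were 2 matches, beginning 176 and 72 bases before the start, and in Calr the single match began 232 bases before it. No match was found in the windows of Pdia4, Dnajb9, Atf4 and Ddit3. The sequence TGACGTGG, bound by XBP1 and ATF6, was in none of the 8 windows and in 0.595% of all promoters. A match is a description of the letters and not a measured binding site.

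Expression was measured as FPKM, the fragments of a transcript scaled to its length and to the mapped fragments of the library, which was summed over the transcripts of a gene. The libraries held an estimated 35778631 to 41112682 reads on transcripts, and the 10 genes had between 258 (Dnajb9) and 10056 (Calr) estimated reads per library. Markers of lung were high in all samples, with a mean of 2880 FPKM in control and 3466 FPKM in model samples for Sftpc, the surfactant protein of type 2 alveolar cells. The summed level of 7 fibroblast markers was 352.6 to 390.9 FPKM in control and 411.8 to 475.7 FPKM in model samples, without overlap, and 4 of the 7 were higher in model samples, 1 of them at an unadjusted p of at most 0.05. This was Col3a1, a fibrillar collagen, which was 168.5 ± 13.1 FPKM in control and 208.3 ± 22.3 FPKM in model samples (SD, n = 3; log2 fold change 0.30, adjusted p = 0.934). It was the only 1 of the 7 whose groups did not overlap, against 10.7% of all tested genes. The separation of the summed level depends on Col3a1.

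All 10 genes were expressed in every library, at levels that spanned 97.3 FPKM for Calr to 3.73 FPKM for Ddit3 (mean of 6 samples). FPKM is per length, so the levels of the genes can be ordered. Calr was followed by Atf4 (74.5 FPKM), Hsp90b1 (52.0 FPKM), Xbp1 (43.3 FPKM), Hspa5 (35.8 FPKM), Atf6 (22.4 FPKM), Pdia4 (18.8 FPKM), Ern1 (7.59 FPKM) and Dnajb9 (4.11 FPKM). The ranges over the 6 samples of neighbours in this order overlapped except for Hspa5 and Atf6, Pdia4 and Ern1, and Ern1 and Dnajb9. Within a library each gene lay above the next in 6 of 6 samples, except for Hsp90b1 above Xbp1 (5 of 6) and Dnajb9 above Ddit3 (4 of 6). These orders use the full sums, of which 22.3% for Atf6 and 20.9% for Ern1 came from assembled transcripts inside an intron. The place of Atf6 above Pdia4 depends on counting them, and so does the gap between the ranges of Ern1 and Dnajb9. Ern1, Dnajb9 and Ddit3 were the 3 least abundant of the 10 genes in both groups.

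**Figure D1:**
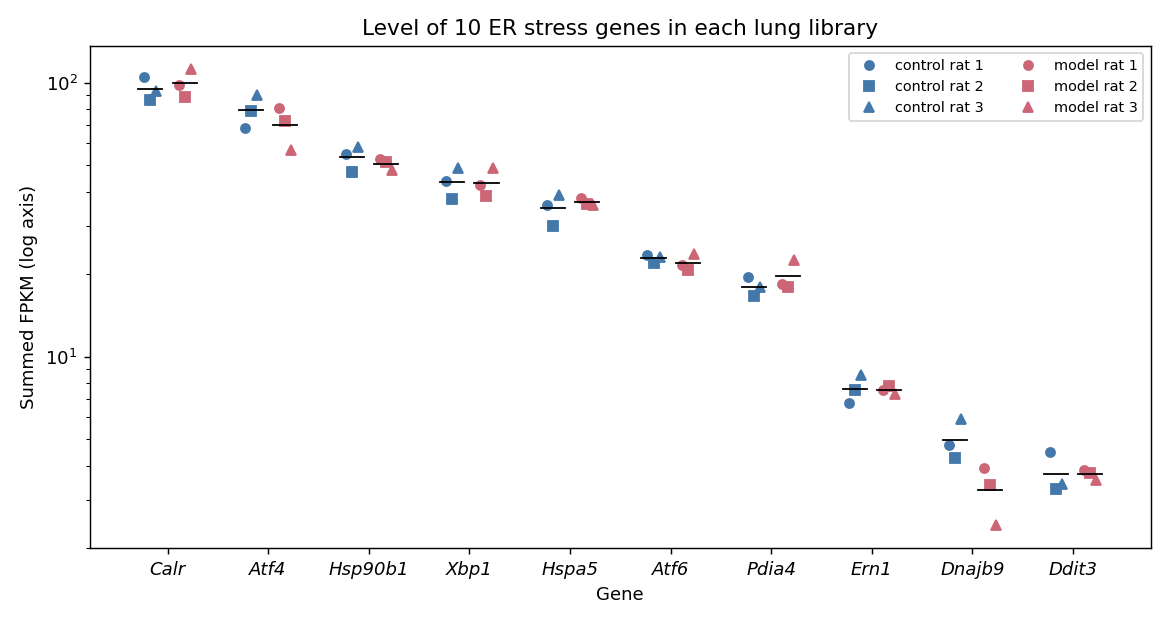
FPKM of each of the 10 genes (log axis) in the 3 control and 3 model rats, with 1 point per rat and a line at the group mean. The points of both groups lie over each other for every gene except Dnajb9, whose 3 model samples (2.42 to 3.94 FPKM) are below the 3 control samples (4.25 to 5.93 FPKM).

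The first question was whether the response differed between model and control lungs at the level of the gene. None of the 10 genes passed the p and fold thresholds, an unadjusted p of at most 0.05 with a log2 ratio of mean FPKM of at least 1 in size, which 1.53% of 19203 tested genes passed. The limits on p and fold are those of the study, whose methods also describe an adjustment for multiple testing, and their use on the unadjusted p was chosen here. At an unadjusted p of at most 0.05 alone, 1 of the 10 genes passed (Dnajb9, lower), against 4.9% of all tested genes, 2.73% lower and 2.16% higher in model samples (4.91% in the fit that holds Xbp1). After Benjamini-Hochberg adjustment over all tested genes no member was below 0.05 (adjusted p 0.934 to 0.9999), and 0.0104% of the tested genes were. Xbp1 had no annotated transcript in the table and was tested in a fit of all 19645 gene names, where the thresholds were passed by 1.52%. The median log2 fold change of the 10 genes was -0.01 and that of all tested genes was also -0.01, with 4 of the 10 genes higher and 6 lower in model samples.

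Hspa5 encodes BiP, the Hsp70 chaperone of the ER lumen that also holds the sensors inactive. Its levels were 35.8, 29.9 and 38.9 FPKM in control 1, 2 and 3 and 38.1, 36.1 and 35.9 FPKM in model 1, 2 and 3. The model samples lay inside the range of the control samples. The log2 fold change was 0.08 (SE 0.11, 95% interval -0.18 to 0.33; adjusted p = 0.951). With the annotated transcript alone it was 0.46, and the unadjusted p was again above 0.05.

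Hsp90b1 encodes GRP94, the Hsp90 chaperone of the ER, which folds integrins and Toll-like receptors. It was at 54.7, 47.3 and 58.3 FPKM in control and 52.5, 51.3 and 47.9 FPKM in model samples. As for Hspa5, the control samples held both the lowest and the highest value, and the difference was -0.07 on the log2 scale (95% interval -0.30 to 0.16; adjusted p = 0.949). Calr encodes calreticulin, a calcium-binding lectin that folds glycoproteins. It was at 105, 86.5 and 93.4 FPKM in control and 98.1, 88.9 and 112.3 FPKM in model samples, and the groups overlapped (log2 fold change 0.07, 95% interval -0.21 to 0.35; adjusted p = 0.966).

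Pdia4 encodes a protein disulfide isomerase of the ER. Its levels were 19.5, 16.6 and 17.9 FPKM in control and 18.5, 17.9 and 22.6 FPKM in model samples. Only model 3 stood above the control samples, and the log2 fold change was 0.12 (95% interval -0.15 to 0.39; adjusted p = 0.935).

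Dnajb9 encodes ERdj4, a co-chaperone of BiP that is a target of XBP1 and that acts on IRE1. It was at 4.76, 4.25 and 5.93 FPKM in control and 3.94, 3.39 and 2.42 FPKM in model samples. All 3 model samples were below all 3 control samples, the only one of the 10 genes for which the groups did not overlap, against 10.7% of all tested genes and 5.83% in that direction. The mean was 4.98 ± 0.860 FPKM in control and 3.25 ± 0.768 FPKM in model samples (SD, n = 3), a log2 fold change of -0.50 (SE 0.18, 95% interval -0.94 to -0.06; adjusted p = 0.934). The unadjusted p of limma was under 0.05 while the log2 ratio of the means, -0.62, was short of the fold threshold. Without control 1, control 3, model 2 or model 3, or with the annotated transcripts alone, the unadjusted p was above 0.05, and in those settings the log2 fold change was -0.52, -0.39, -0.53, -0.35 and -0.12. On the TPM scale it was -0.48, and the unadjusted p was again above 0.05.

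Ern1, the sensor that cuts Xbp1, was at 6.76, 7.53 and 8.57 FPKM in control and 7.58, 7.81 and 7.30 FPKM in model samples. The model samples were inside the control range, and the log2 fold change was -0.01 (95% interval -0.27 to 0.25; adjusted p = 0.9999). Atf6 was at 23.5, 22.0 and 23.1 FPKM in control and 21.6, 20.7 and 23.7 FPKM in model samples, with a log2 fold change of -0.06 (95% interval -0.25 to 0.13; adjusted p = 0.952). Of all 10 genes its summed FPKM varied least, with a ratio of 1.14 between the highest and the lowest sample. This holds with intronic transcripts counted, and without them in the sums of Atf6 and Ern1, Ern1 varied least. Of the summed FPKM, 22.3% for Atf6 and 20.9% for Ern1 came from assembled transcripts inside an intron, those of Atf6 on the opposite strand, so these sums may hold RNA that is not the mRNA of the sensor.

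Xbp1 was at 43.8, 37.8 and 48.9 FPKM in control and 42.2, 38.7 and 48.7 FPKM in model samples. The means of 43.5 ± 5.56 and 43.2 ± 5.06 FPKM (SD, n = 3) were close, and the log2 fold change was -0.01 (95% interval -0.31 to 0.30; adjusted p = 0.999). No row of the table marks the form of Xbp1 that IRE1 has cut, so its share was not measured. Protein levels, cleavage and phosphorylation, by which the sensors act, are outside these data as well.

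Atf4, the transcription factor of the PERK arm, was at 68.3, 78.6 and 90.4 FPKM in control and 80.8, 72.3 and 56.5 FPKM in model samples. Model 3 was the lowest and control 3 the highest, and the log2 fold change was -0.18 (95% interval -0.57 to 0.21; adjusted p = 0.934). Without model 3 it was -0.039. Ddit3, the gene of CHOP, was at 4.48, 3.28 and 3.44 FPKM in control and 3.87, 3.76 and 3.55 FPKM in model samples. Its means were 3.73 ± 0.651 FPKM in control and 3.73 ± 0.162 FPKM in model samples (log2 fold change 0.01, 95% interval -0.32 to 0.34; adjusted p = 0.9999). Only 30.8% of the summed FPKM of Ddit3 came from its annotated transcript, which had 19.2 to 89.8 estimated reads per library. For that transcript alone the 95% interval was -0.87 to 1.09. The means and interval of the sum thus rest mostly on an assembled transcript.

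**Figure D2:**
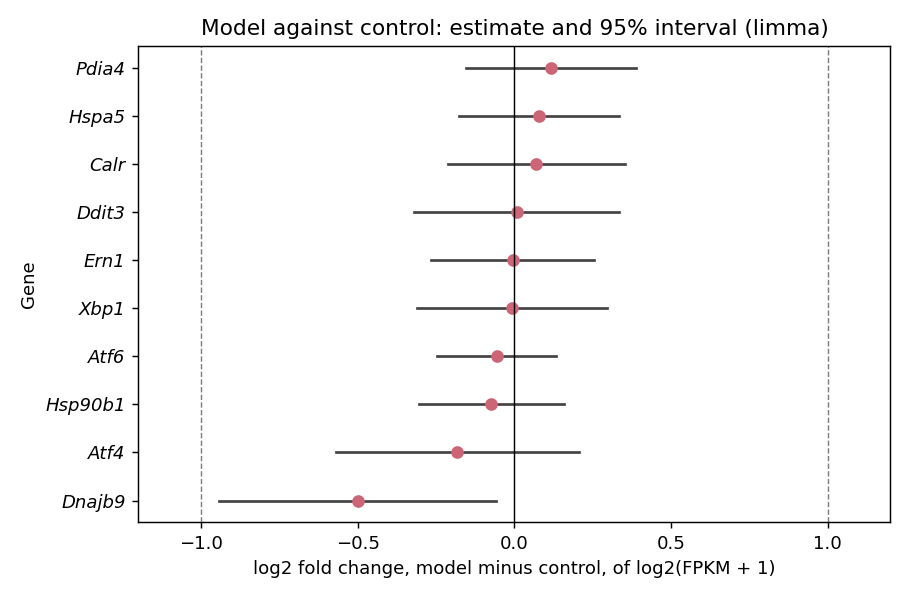
Log2 fold change of log2(FPKM + 1), model minus control, for the 10 genes, with 95% intervals from limma (3 rats per group). Dashed lines mark -1 and 1, while the fold threshold applies to the ratio of mean FPKM. All 10 intervals lie inside the dashed lines, and only that of Dnajb9 leaves out 0.

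The precision of these values limits how large a difference could have been missed. On the scale of FPKM + 1, the 95% intervals ran from 0.521-fold (Dnajb9) to 1.31-fold (Pdia4) of control over all 10 genes. With transcripts summed as above, the interval for Hspa5 was 0.885-fold to 1.26-fold, for Ddit3 0.800-fold to 1.26-fold and for Atf4 0.673-fold to 1.15-fold. On this scale all 10 intervals lay within a log2 fold change of 1 in either direction. Of these, 8 lay within 0.5, all except those of Dnajb9 and Atf4. The scale understates changes of low genes such as Dnajb9, whose log2 ratio of means was -0.62. Intervals of single transcripts were wider for some genes. They were -0.53 to 1.45 for the annotated transcript of Hspa5 and -0.87 to 1.09 for that of Ddit3. Differences inside these intervals could not be told from no difference with 3 rats in each group.

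The differences between rats of 1 group were shared by several of the genes. Control 2 was the lowest sample for 6 of them (Hspa5, Hsp90b1, Calr, Pdia4, Xbp1 and Ddit3), and control 3 was the highest for 6 (Hspa5, Hsp90b1, Dnajb9, Xbp1, Atf4 and Ern1). Model 3 was the highest for Calr, Pdia4 and Atf6 and the lowest for Dnajb9 and Atf4. The same counts over all genes are not given here, so these orders cannot be read as particular to the 10 genes. Control 2 also had the fewest estimated reads of all libraries and control 3 the most. The summed FPKM of all transcripts was highest in control 2, at 597647 against 510208 to 556306 in the other libraries. The part of depth and of this sum in these orders was not tested. The ratio of the highest to the lowest sample was 2.45 for Dnajb9, 1.60 for Atf4 and 1.37 or less for the other genes.

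The genes whose log2(FPKM + 1) followed that of Hspa5 most closely over the 6 samples were Rnf215, Impad1, Ptpra, Cr1l, Ets2, Itfg1, Snx10, Clasp2, Ncoa4 and Brd2, with Pearson's r of 0.99 to 0.96 among 8725 genes with a mean of at least 5 FPKM. Hsp90b1 had an r of 0.72 with Hspa5 and came at rank 377, and Xbp1 had an r of 0.64 and came at rank 649. The r was 0.38 for Calr, 0.35 for Pdia4, 0.32 for Ern1, 0.14 for Atf4 and 0.11 for Atf6. With the group means subtracted, Hsp90b1 had an r of 0.96 and came at rank 58, and Xbp1 had an r of 0.68 and came at rank 972. The r was then 0.32 for Calr, 0.24 for Pdia4, 0.35 for Ern1, 0.33 for Atf4 and 0.29 for Atf6. These are descriptions over 6 samples that share their libraries and scaling.

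The second level of the data is the single transcript, where the deposited FPKM divide each gene between annotated and assembled forms. None of the 25 tested transcripts passed the p and fold thresholds (2.98% of 64867 tested transcripts did), and none had an unadjusted p of at most 0.05 (4.53% did). The transcript with the lowest p was an assembled one of Atf6 (log2 fold change -0.33), and the adjusted p ranged from 0.945 to 0.992 (0.0277% of all tested transcripts were under 0.05). No transcript had groups that did not overlap, against 10.4% of all tested transcripts.

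Hspa5 lies on chromosome 3 from 13838304 to 13842762 in the coordinates of the files, whose build is not given in the sources used here. Its annotated transcript has 9 exons and 2562 bases, and the assembled transcript has the same ends with 8 exons and 82 bases more. The annotated transcript took 67.5%, 51.4% and 24.9% of the FPKM of Hspa5 in control and 37.1%, 63.4% and 85.5% in model samples. This share varied widely within both groups, while the summed FPKM of Hspa5 varied by a ratio of 1.30.

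Calr (chromosome 19, 25956771 to 25961666) showed the same arrangement, with an annotated transcript of 9 exons and an assembled one that has 8 exons and is 254 bases longer. The annotated share was 46.2%, 40.7% and 63.0% in control and 27.0%, 24.7% and 67.9% in model samples. Model samples held both the lowest and the highest share.

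Dnajb9 (chromosome 6, 64165913 to 64170151) had 3 transcripts. The annotated transcript of 3 exons took 62.9%, 24.7% and 7.81% in control and 5.10%, 55.9% and 67.7% in model samples. The assembled transcript, with 2 exons and 3479 bases against 1956 bases, took 16.6%, 67.4% and 70.9% in control and 58.4%, 27.1% and 27.6% in model samples. The transcript that carried most of Dnajb9 thus differed between rats of the same group, and for none of its transcripts did the groups separate.

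Ddit3 (chromosome 7, 70580198 to 70585084) has an annotated transcript of 4 exons and 925 bases and an assembled one of 3 exons and 5685 bases. The annotated share was 46.7%, 19.4% and 14.6% in control and 29.1%, 12.5% and 57.9% in model samples. In Hspa5, Dnajb9 and Ddit3 alike, control 1 and model 3 had the highest shares of the annotated transcript with more exons. The assembled forms of these 3 genes and of Calr were longer with fewer exons, and reads that fit both forms cannot be assigned to either with certainty.

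The division was steadier for the other genes. For Hsp90b1 the assembled transcript of 18 exons (chromosome 7, 27226625 to 27240846) took 92.7% to 98.3% of the FPKM, and for Xbp1 the assembled transcript of 5 exons (chromosome 14, 85753639 to 85758808) took 84.7% to 93.9%. The annotated transcript of 3 exons took 86.2% to 90.5% of Atf4 (chromosome 7, 121480723 to 121482772), and Pdia4 (chromosome 4, 77470636 to 77489535) had a single transcript. The annotated transcript of Ern1 (chromosome 10, 94588555 to 94681914) held 52.4% to 65.8%.

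For Atf6 (chromosome 13, 89055983 to 89242443) the annotated transcript took 60.6%, 41.7% and 52.0% in control and 66.1%, 63.7% and 52.2% in model samples. Its mean share was 51.4% ± 9.45 in control and 60.7% ± 7.45 in model samples (SD, n = 3; exact permutation test, p = 0.2). Of 22 shares compared over 9 genes, the smallest p in an exact two-sided permutation test was 0.2 (2 shares, both of Atf6) and the lowest adjusted p was 0.88. With 3 rats against 3 this test cannot give a p below 0.1.

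**Figure D3:**
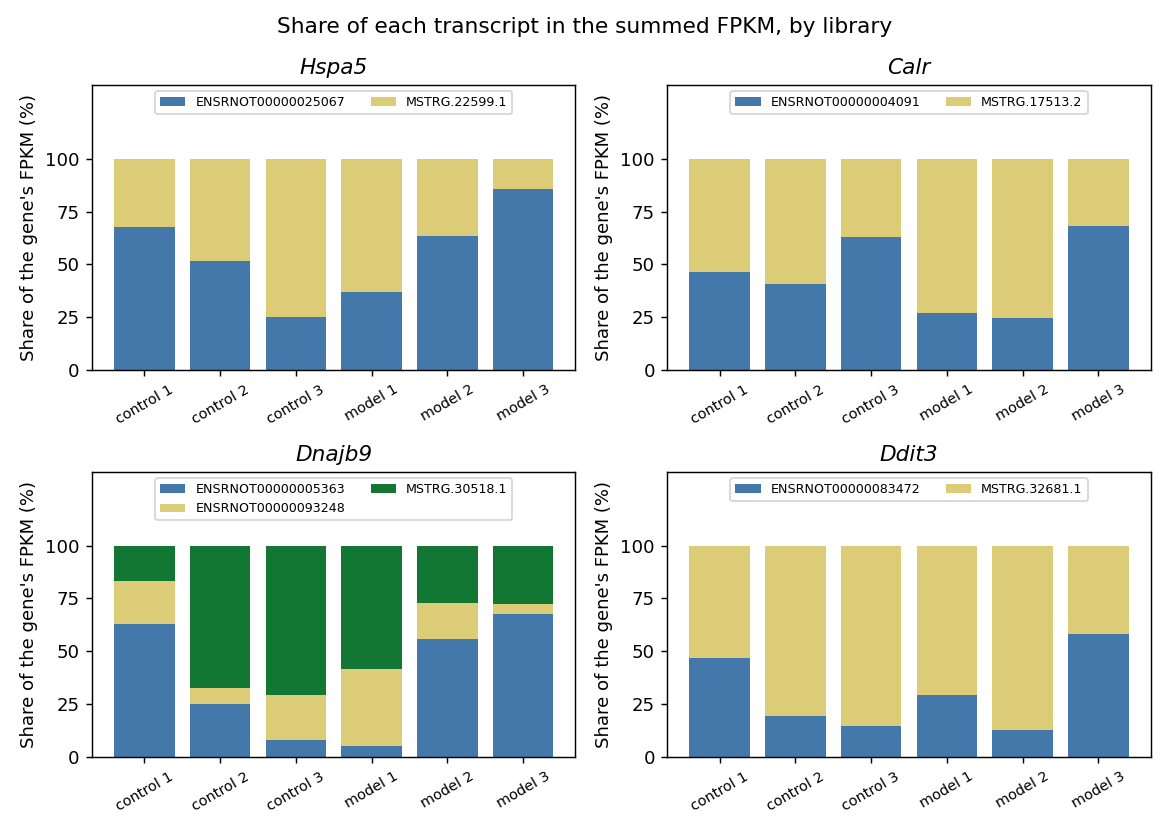
Share of the summed FPKM (percent, from 0) taken by each transcript of Hspa5, Calr, Dnajb9 and Ddit3 in the 6 rats. The division between annotated and assembled transcripts is uneven among rats of the same group, and the annotated transcript of Hspa5 runs from 24.9% to 67.5% in control and from 37.1% to 85.5% in model samples.

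The genes around these 10 were examined in 6 lists of the response, which held 96 distinct genes beside the 10, of which 89 were tested. None passed the p and fold thresholds, and 4 (4.49%, against 4.9% of all tested genes, 2.16% higher in model samples) had an unadjusted p of at most 0.05, each higher in model samples and each with an adjusted p of 0.934. That count of 4 became 0 without model 3, 1 without control 2 and 2 without control 3. The median log2 fold change over the 89 genes was 0.01, and the largest in size was 0.52. The groups did not overlap for 9 genes (10.1%, against 10.7% of all tested genes), 8 of them higher and 1 lower in model samples (4.86% and 5.83% of all tested genes), the lower one being Erlec1 of ER-associated degradation (22.5 ± 1.39 FPKM in control, 18.96 ± 1.97 FPKM in model samples). The higher ones included Creb3l3, which was near the floor, at 0 FPKM in all control samples and 0.018 to 0.046 FPKM in model samples.

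Among 23 further ER chaperones and folding enzymes, 3 (13.0%) had an unadjusted p of at most 0.05 and all 3 were higher. The share over all tested genes was 4.9%, with 2.16% higher in model samples, and over the 6 lists together it was 4.49%. Without model 3 none of the 3 had a p of at most 0.05. Serpinh1, which encodes the collagen chaperone HSP47, was at 75.9 ± 11.4 FPKM in control and 94.2 ± 1.78 FPKM in model samples (SD, n = 3; log2 fold change 0.32, adjusted p = 0.934). Ppib, the prolyl isomerase cyclophilin B that also acts on procollagen, was at 42.1 ± 3.82 and 50.5 ± 4.48 FPKM (log2 fold change 0.26, adjusted p = 0.934). Sdf2l1, a partner of BiP and its co-chaperones, was at 4.37 ± 0.386 and 5.60 ± 0.227 FPKM (log2 fold change 0.30, adjusted p = 0.934). The summed fibroblast markers given above, whose separation depends on Col3a1, were higher in the same samples. Their part in the levels of Serpinh1 and Ppib was not tested. Of those 7 markers Col1a1, Col1a2, Col3a1 and Postn had positive log2 fold changes (0.16 to 0.30) and Pdgfra, Dcn and Lum had negative ones (-0.13 to -0.06). P4hb, a disulfide isomerase and subunit of prolyl 4-hydroxylase, was at 64.0 ± 3.23 and 69.8 ± 7.99 FPKM (adjusted p = 0.934), and the summed level of the list was 483.6 to 526.0 FPKM in control and 498.3 to 570.9 FPKM in model samples.

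No gene of the 12 sensors and processing factors had a p of at most 0.05, with Mbtps1, the protease that cuts ATF6, at 26.4 ± 3.03 FPKM in control and 29.4 ± 5.24 FPKM in model samples (adjusted p = 0.935). Creb3l2, an ATF6-like factor, was at 20.5 ± 1.73 and 20.7 ± 1.62 FPKM (adjusted p = 0.996). Among 21 genes of ER-associated degradation and translocation there was again none, with a median log2 fold change of 0.05. The AAA ATPase Vcp was at 35.0 ± 0.612 and 38.7 ± 4.10 FPKM (adjusted p = 0.934), and Ssr1 of the translocon was at 39.0 ± 6.18 and 38.6 ± 2.02 FPKM (adjusted p = 0.9999).

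Among 19 targets of the PERK and ATF4 arm, Ddit4, an inhibitor of mTORC1, was higher in model samples at 10.8 ± 1.33 FPKM against 7.90 ± 1.33 FPKM (SD, n = 3; log2 fold change 0.41, adjusted p = 0.934). Atf3, a stress-induced transcription factor, was at 41.4, 38.7 and 30.2 FPKM in control and 30.8, 33.2 and 15.2 FPKM in model samples. The groups overlapped, and the log2 fold change was -0.52 (95% interval -1.24 to 0.19; adjusted p = 0.934). Without model 3 it was -0.18. Atf5 was at 28.4 ± 6.32 and 28.6 ± 1.97 FPKM (adjusted p = 0.995). The list as a whole had 8 genes higher and 11 lower, with a median log2 fold change of -0.03.

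Of 7 tested genes of cell death under ER stress, none had a p of at most 0.05 and the median log2 fold change was -0.11. Map3k5, the kinase ASK1 that acts after IRE1, was at 31.1 ± 3.56 FPKM in control and 29.0 ± 0.157 FPKM in model samples (adjusted p = 0.941), and Bak1, a pro-apoptotic BCL2 family member, was at 10.7 ± 1.05 and 11.5 ± 1.44 FPKM (adjusted p = 0.952). Of 8 tested heat shock genes of the cytosol, none had a p of at most 0.05, with Hsp90ab1 at 160.9 ± 10.0 and 165.9 ± 5.84 FPKM (adjusted p = 0.969) and Hspb1 at 83.6 ± 19.2 and 79.6 ± 18.6 FPKM (adjusted p = 0.987).

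**Figure D4:**
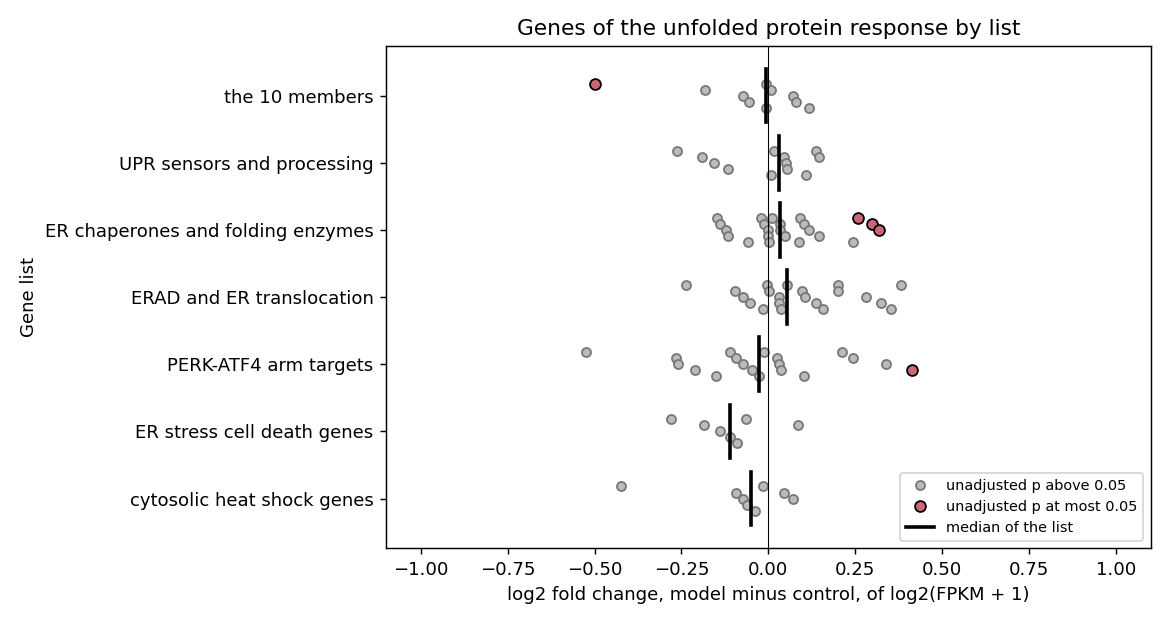
Log2 fold change of log2(FPKM + 1), model minus control, for each tested gene of the 10 and of the 6 lists, with 1 point per gene and a line at the median of each list. The medians lie between -0.11 and 0.05, and no gene of the lists is beyond 0.52 in size.

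The cell types known for a strong unfolded protein response were followed by their markers. The summed level of 7 type 2 alveolar cell markers was 4347 to 6046 FPKM in control and 5127 to 6664 FPKM in model samples, with overlap. All 7 had a higher mean on the log2 scale in model samples (median log2 fold change 0.25), none of them at an unadjusted p of at most 0.05. Plasma cell markers summed to 82.3 to 84.1 FPKM in control and 73.1 to 101.3 FPKM in model samples over 6 tested genes, with overlap. Jchain (mean of 36.7 FPKM in control) and Sdc1 (34.8 FPKM) made up most of this sum. Of the 6 genes 3 were higher in model samples. Among them Tnfrsf17, the receptor BCMA of plasma cells, passed the p and fold thresholds, as did 1.53% of all tested genes. Its level was low, at 0.154 ± 0.0359 FPKM in control and 0.434 ± 0.121 FPKM in model samples (adjusted p = 0.934). The sums of macrophage, endothelial and airway markers overlapped between groups.

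The genes that share the ERSE were also looked at together. The element was found for 21 gene symbols, of which 16 were measured, and beside the 4 of the 10 genes these included the chaperone gene Canx and the co-chaperone gene Dnajc3. None of the 16 passed the p and fold thresholds or had a p of at most 0.05, against 1.53% and 4.9% of all tested genes. At these shares a count of 0 among 16 genes says little. Their log2 fold changes had a median of 0.00 and ran from -0.35 (Hnrnpa3) to 0.30 (Birc5).

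Circular RNAs were called from back-splice reads in the same libraries, which held 2037 to 2964 such reads each. Of 5216 circular RNAs, 4 came from 3 of the 10 genes, with 6 reads in all, 4 in control and 2 in model samples. From Atf6 came 1 circular RNA with 2 reads in control 1 and 1 read in model 1, and another with 1 read in control 3. Ern1 had 1 read in control 1, and an intronic circular RNA of Xbp1 had 1 read in model 3. These counts were too few to compare groups, and no circular RNA of the other 7 genes was listed.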

How the data were processed

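Lung libraries depleted of ribosomal RNA from 3 control and 3 model rats were analysed. The authors deposited FPKM for each assembled or annotated transcript, the coverage of each transcript as a signal, and back-splice read counts for each circular RNA. Circular RNA signal normalized by library (SRPBM) was deposited as well and was not used. The paper's methods name Bowtie2, Tophat2 and StringTie, and the submitters' processing notes list HISAT2, StringTie and TopHat. The genome build is not given in the sources used here. All 24 measurement columns matched a sample.

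FPKM were summed per gene name, a sum that does not correct for isoform length. Reads were estimated as coverage times length divided by 150 bases. The p-values of limma set the difference between groups against the spread between rats of a group, which is moderated over all tested features. Genes with at least 1 annotated transcript and FPKM above 0 in at least 3 samples were compared on log2(FPKM + 1), a scale that understates changes of low genes, with limma 3.58.1 (trend) in R 4.3.3, two-sided and with Benjamini-Hochberg adjustment over all features, after the code was tested on simulated data. Intervals are 95% intervals. Xbp1 has assembled transcripts only and was tested in an added fit of all gene names. A gene or transcript was called at an unadjusted p up to 0.05 when its group means also differed by a log2 ratio of 1 or more in size. Isoform shares were compared with exact permutation tests, for transcripts with a share of at least 10% in any sample.

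The 10 genes, the lists and the markers were chosen with earlier results of these data known. The rule for named genes took the 10 genes, list genes with p of at most 0.05, the 2 most abundant genes of each list and the 10 genes most like Hspa5. The fibroblast markers, Sftpc, Erlec1, Creb3l3, Tnfrsf17, Canx, Dnajc3, Hnrnpa3, Birc5, Edem1, Ern2 and the genes of the last section fall outside this rule and were chosen after their values were seen. Alternatives were pseudocount, filter, TPM, median scaling, length-weighted sums, annotated transcripts alone, the replicate block and leaving out each rat, and, added after seeing the data, all gene names and no intronic transcripts.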

Additional observations from a re-analysis of the deposited data

How the results depend on the processing

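No alternative that was run brought any of the 10 genes past the p and fold thresholds. For Xbp1, sums weighted by length, annotated transcripts alone and the fit without intronic transcripts were not run. Members with an unadjusted p of at most 0.05 numbered 1 as reported (Dnajb9), 0 with TPM, 0 with annotated transcripts alone, 0 with the replicate block and 0 to 1 when a rat was left out (0 without control 1, control 3, model 2 or model 3). The log2 fold change of Dnajb9 stayed negative under all of them, from -0.62 to -0.12. Called transcripts numbered 0 to 1 when a rat was left out, the 1 being the assembled transcript of Dnajb9 without control 1 (log2 fold change -1.03). Called list genes numbered 1 with annotated transcripts alone (Edem1) and 0 to 1 when a rat was left out (Ern2 without model 1). List genes with a p of at most 0.05 numbered 0 to 6 against 4 as reported, with 0 without model 3, 1 without control 2 and 2 without control 3, and shares that did not overlap numbered 0 to 5 against 0.

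Small differences turned sign. With TPM the log2 fold change was 0.010 for Hsp90b1, 0.076 for Xbp1, 0.025 for Atf6, 0.073 for Ern1, 0.012 for Hspb1 and 0.079 for Ssr1, while the median of all genes was 0.05. With median scaling it was 0.019 for Xbp1, 0.017 for Ern1 and 0.020 for Ssr1, and with length-weighted sums -0.082 for Ddit3 and 0.012 for Ssr1. With annotated transcripts alone it was 0.46 for Hspa5 (0.08 as reported), and of turned sign at 0.23 for Hsp90b1, -0.38 for Calr, 0.17 for Atf6, -0.31 for Bak1, -0.29 for Creb3l2 and -0.16 for Mbtps1, and without intronic transcripts -0.044 for Creb3l2. When a rat was left out it ranged from -0.024 to 0.16 for Hspa5, -0.018 to 0.15 for Calr, -0.10 to 0.079 for Xbp1, -0.061 to 0.12 for Ddit3, -0.079 to 0.072 for Ern1, -0.081 to 0.20 for Atf5, -0.0059 to 0.15 for Bak1, -0.041 to 0.080 for Creb3l2, -0.23 to 0.11 for Hspb1 and -0.14 to 0.068 for Ssr1. The cause was not tested.

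Over all genes, 293 were called as reported (132 higher, 161 lower), 332 with TPM (194 higher, 138 lower), 519 with annotated transcripts alone and 80 at a mean of at least 1 FPKM. Rats with the same number did not deviate together (r of 0.08, 0.03 and -0.07), so the replicate block rests on a shared number only; it gave 311 calls over all genes, and with it the unadjusted p was above 0.05 for Dnajb9 and under 0.05 for Atf3. Depth limits Dnajb9 and Ddit3 most, at 258 to 806 and 478 to 841 estimated reads per library.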

Other observations

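Several stress genes outside the 10 varied widely between rats of the same group. Hspa1a, the inducible cytosolic Hsp70, was at 85.9, 22.6 and 32.6 FPKM in control and 31.9, 56.5 and 41.3 FPKM in model samples, a ratio of 3.80 between the highest and the lowest sample. Its partners Hsph1 and Dnajb1 were lowest in control 2, at 8.24 and 6.94 FPKM. In the same libraries Hspa5 varied by a ratio of 1.30.

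Model 3 was the lowest sample for Atf4 and for 5 of the 19 tested targets of the PERK and ATF4 arm (Atf3, Trib3, Ppp1r15a, Cebpg and Slc3a2), and the highest for 4 others (Asns, Slc7a5, Shmt2 and Aars). The same counts over all genes are not given here, so these cannot be read as particular to the arm. Ppp1r15a, which encodes the phosphatase subunit GADD34, was at 13.2 FPKM in model 3 and at 26.7 to 32.0 FPKM in the other samples. In the same library Herpud1 (28.3 FPKM) and Edem1 (22.0 FPKM), both of ER-associated degradation, were at their highest. Further genes of that list, such as Vcp (43.0 FPKM), were also at their highest there, while Erlec1 (16.7 FPKM) and Edem3 (10.4 FPKM) were at their lowest. The counts over the list and over all genes are not given here. With 3 rats in each group these differences between libraries were not tested.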
